A study of Mus musculus with 4 samples.

Results

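The genes that encode the proteasome and its regulators were examined in skeletal muscle of male mice lacking the receptor Crhr2. They were taken by name, as every probe set that the platform annotation assigns to 1 symbol made of Psm, a letter from a to g and a number. This gave 58 probe sets of 46 symbols, of 12422 probe sets and 8251 single-symbol genes on the array. Of these symbols, Psmc3ip and Psme3ip1 name proteins that interact with a subunit rather than subunits, so 56 probe sets of 44 genes are described here. Another 2 probe sets carry several symbols and were left out. Psma8, Psmb11, Psme2, Psme2b and Psmf1 were therefore not analysed here.

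The KO group was Crhr2-/- and the WT group Crhr2+/+. Both groups were untreated littermates aged 6.5 months on a C57BL/6x129 background, fed chow. Total RNA of gastrocnemius and soleus, a fast and a slow calf muscle, was pooled from 2 mice for each Affymetrix U74Av2 array, and each group had 2 such arrays. How the allele was made is not known from the labels, and the sample titles set the groups because the genotype and tissue fields of the labels are exchanged. Each array held RNA of whole muscle, where fewer cells of a type and less RNA per cell cannot be told apart. The p-values measure the spread between pools.

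The proteasome is the cell's main machine for degrading proteins tagged with ubiquitin. Its barrel-shaped 20S core is built of outer alpha rings, which gate the entry, and inner beta rings, which hold the cutting sites. The 19S regulator caps the barrel: a ring of ATPases unfolds the substrate, and the base and lid subunits bind and remove the ubiquitin. Interferon-induced cells exchange the cutting subunits for those of the immunoproteasome, which makes peptides for MHC class I. In skeletal muscle the ubiquitin-proteasome route is best known for breaking down contractile proteins during wasting.

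Signals are given in the arbitrary units of the deposited table. The targeted gene read 100.4 and 75.1 in the KO arrays and 154 and 192 in the WT arrays on its brighter probe set, and its dimmer one overlapped between the groups. The labels do not say which exons were removed, so these signals check the genotypes only in part. The arrays were of muscle by their markers: the skeletal actin Acta1, the creatine kinase Ckm and the fast myosin Myh4 lay between the 99.4th and the 100.0th percentile of signal, and Myh2 alone of 14 fibre markers read below the median probe set. Markers of other tissues differed between the arrays. The summed signal of 9 exocrine pancreas genes came to 13133 on KO replicate 1 and 4006 on KO replicate 2, against 1757 and 1695 in WT. That of 7 liver genes was 262 and 352 in KO, against 618 in WT replicate 1 and 1717 in WT replicate 2. The ratio of 3' to 5' actin control signals was 0.729 and 0.866 in KO, against 0.624 and 0.686 in WT. The part of these differences in the results below was not tested.

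Proteasome transcripts differed little between KO and WT muscle. Of 44 genes, read on the probe set with the highest mean, 29 (65.9%) were lower and 15 higher in KO, where 50.8% of all 8251 genes were lower. The median log2 fold change (KO over WT) was -0.05 for the members and -0.0044 for all genes. None of the 56 probe sets had a limma adjusted p under 0.05, against 0.0% of all 12422 probe sets. Before adjustment, 4 of them had a limma p under 0.05, those of Psmd8 and Psmd6 and both of Psmg3, where 5.43% of all probe sets did. The KO arrays lay below both WT arrays in 15 of the 44 genes (34.1%) and above both in 5 (11.4%), where all genes gave 18.2% below and 16.5% above. In either direction the share was 45.5% for the members and 34.7% for all genes. Leaving out 1 array raises such counts for every gene, since 1 array then stands for a genotype. They then lay between 21 and 22 genes below and 9 and 12 above, where all genes gave between 33.8% and 35.4% below and between 31.2% and 35.8% above.

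The members were measured tightly. Their 2 KO pools differed by a median of 0.13 and their 2 WT pools by 0.11 on the log2 scale, against 0.24 and 0.23 over all genes. The members' probe sets were brighter than most, and among the 4856 genes above the median level the same differences were 0.20 and 0.18. The median standard error of a fold change was 0.12 for the members, 0.26 for all genes and 0.19 for those above the median level. Members were brighter than the latter too, with a median signal of 902 against 233. The part of signal level in these differences was not tested. For 32 of the 44 genes the 95% interval of the fold change lay within 1.5-fold in either direction, and for 39 within 2-fold. Over all 8251 genes these counts were 2275 and 5259, and over the 4856 genes above the median level 2106 and 4159.

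**Figure D1:**
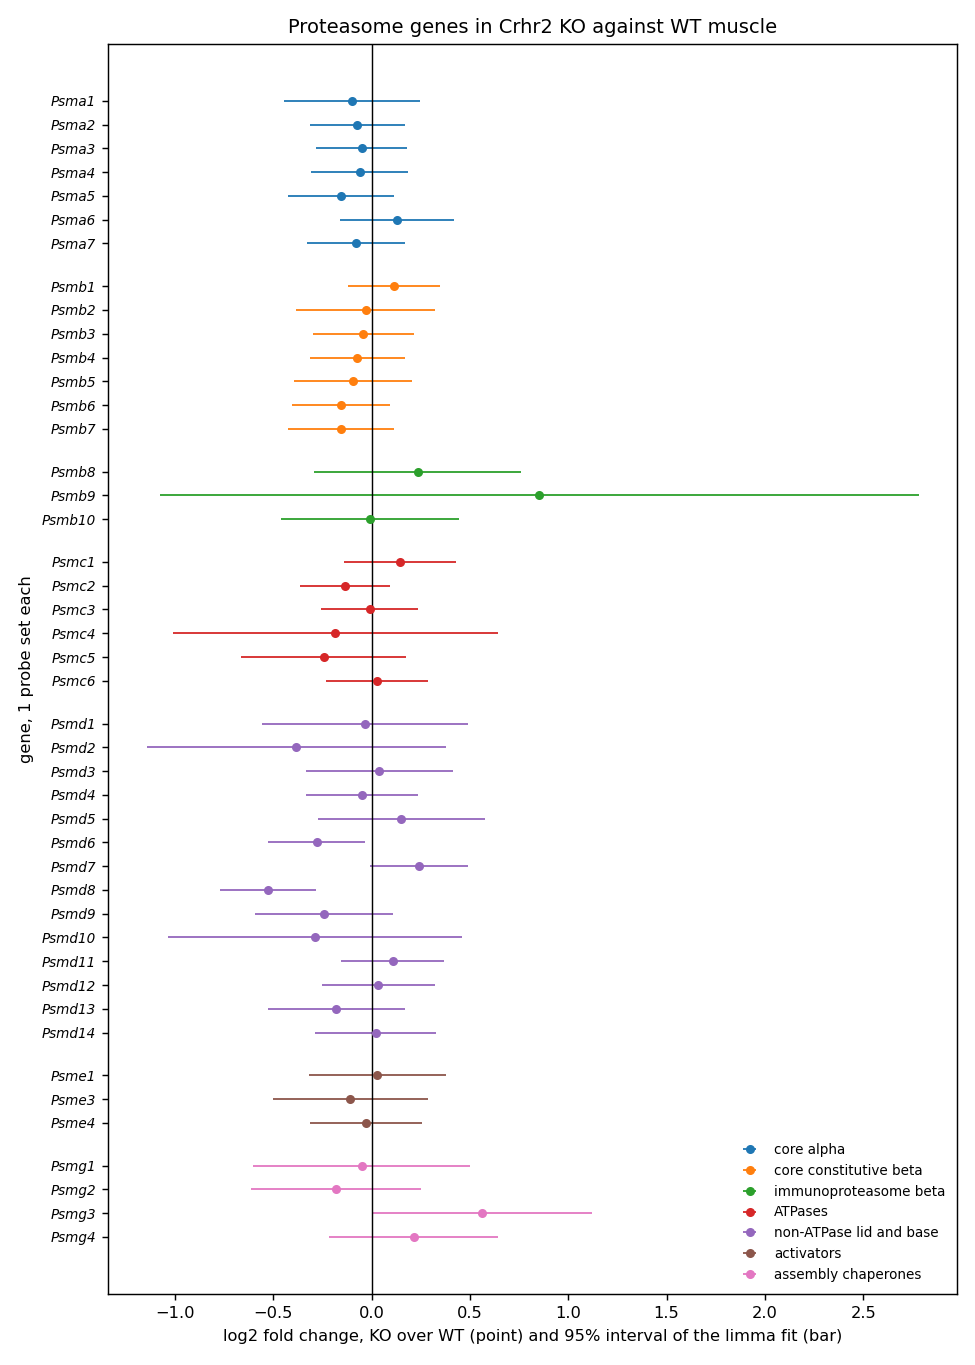
Log2 fold change of each of the 44 proteasome genes in KO over WT muscle (points) with the 95% interval of the limma fit (bars), by role group. Most points lie close to 0 and slightly to its left; Psmd8, at -0.53, and Psmd6, at -0.28, have intervals wholly below 0, Psmg3, at 0.56, has one just above 0, and Psmb9 has the widest interval.

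The alpha subunits, whose tails form the gate of the core, differed little between KO and WT. Of 7 genes, 6 were lower in KO and 1 was higher (median log2 fold change -0.07). In 4 of the 7 (57.1%) both KO arrays lay below both WT arrays, against 18.2% of all genes. Psma5 read 611 and 638 in KO, against 669 and 725 in WT (log2 fold change -0.15 ± 0.11, SE). Psma7 read 901 and 929 in KO, against 935 and 999 in WT (-0.08 ± 0.10). Both genes kept the genotypes apart, but by less than the width of their intervals. Psma6 was the exception in direction, with 2963 and 2548 in KO, against 2381 and 2644 in WT (0.13 ± 0.12), and its groups overlapped. The other 4 genes had log2 fold changes between -0.10 for Psma1 and -0.05 for Psma3. All 7 intervals lay within 1.5-fold.

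The constitutive beta subunits gave the same picture. In this group 6 of 7 genes were lower in KO (median -0.07, and -0.03 with the mean of all probe sets of a gene), and all 7 intervals lay within 1.5-fold. The 3 cutting subunits were all among the lower ones on their brightest probe sets. Psmb5, the chymotrypsin-like subunit, read 1179 and 1002 in KO, against 1103 and 1224 in WT (-0.09 ± 0.12), and the groups overlapped. Its dimmer probe set read 107.1 and 105.6 in KO, against 105.2 and 90.2 in WT (0.11 ± 0.24). There both KO arrays lay above both WT arrays, so no direction can be given for Psmb5. Psmb6, the caspase-like subunit, read 1145 and 1108 in KO, against 1200.0 and 1310.4 in WT (-0.15 ± 0.10). Psmb7, the trypsin-like subunit, read 1938 and 1673 in KO, against 2003 and 2009 in WT (-0.15 ± 0.11). In Psmb6 and Psmb7 both KO arrays lay below both WT arrays, Psmb7 mainly through KO replicate 2: the log2 fold change was -0.05 without that array.

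Psmb1, a structural subunit, was read by probe sets that went opposite ways. The brightest gave 1599 and 1690 in KO, against 1504 and 1528 in WT (0.12 ± 0.10), and the next 861 and 812 in KO, against 930 and 919 in WT (-0.14 ± 0.10). Each kept the genotypes apart, in opposite directions, so no direction can be given for the gene. Its other probe set was dim and gave -0.01 ± 0.30. Psmb4 read 2060 and 1896 in KO, against 2092 and 2064 in WT (-0.07 ± 0.10), and its 2 other probe sets were below the median probe set. One of these read 22.7 and 2.63 in KO, against 1.32 and 4.66 in WT, a log2 fold change of 0.55 ± 0.39 that rested on KO replicate 1 and was -0.02 without it. Psmb2 and Psmb3 had log2 fold changes of -0.03 and -0.04.

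Of the 14 genes of the 20S core 12 were thus lower in KO on their brightest probe sets, at a median of -0.07. This counts Psmb5 as lower and Psmb1 as higher, although their probe sets differed in direction. The mean deviation of these genes from their mean over the arrays came to -0.0039 on KO replicate 1 and -0.05 on KO replicate 2, against -0.01 in WT replicate 1 and 0.07 in WT replicate 2. In this mean the difference lay between KO replicate 2 and WT replicate 2, while KO replicate 1 and WT replicate 1 stood level. Gene by gene this did not hold throughout. Both KO arrays lay below both WT arrays in 7 of the 14 genes, and above both in 1. The highest value was that of WT replicate 2 for 8 of the 14 genes, and the lowest that of KO replicate 2 for 7. Of all 8251 genes, 2086 were highest in WT replicate 2 and 2030 were lowest in KO replicate 2. Without KO replicate 2 the median was -0.03 for the alpha and -0.03 for the constitutive beta subunits.

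**Figure D2:**
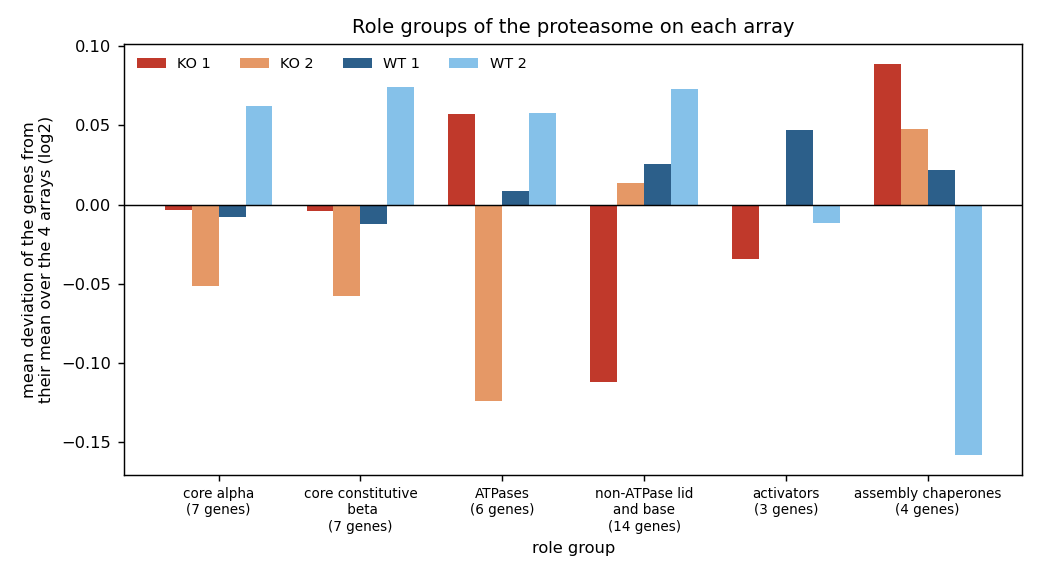
Mean deviation of the genes of each role group from their mean over the 4 arrays (bars, log2 units), for KO replicates 1 and 2 and WT replicates 1 and 2, without the immunoproteasome group. In both core groups KO 2 is lowest and WT 2 highest, whereas for the assembly chaperones WT 2 is lowest; the bars lie between -0.16 and 0.09.

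Of all role groups, the immunoproteasome subunits differed most between the WT pools, by a median of 0.56 on the log2 scale. Psmb9 (LMP2), which replaces Psmb6, read 108 and 133 in KO, against 170 in WT replicate 1 and 15.8 in WT replicate 2. Psmb8 (LMP7), which replaces Psmb5, read 285 and 325 in KO, against 314 and 209 in WT. In both genes WT replicate 2 was the lowest array, while WT replicate 1 was above both KO arrays for Psmb9 and between them for Psmb8, so the groups overlapped. Psmb10 (MECL-1), which replaces Psmb7, read 205 and 273 in KO, against 232 and 244 in WT, and did not share the low value of WT replicate 2.

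The genotype contrast of Psmb8 and Psmb9 rested on that array. Psmb9 had a log2 fold change of 0.85 ± 0.79 with all arrays and of -0.46 without WT replicate 2. Psmb8 had 0.23 ± 0.22 and -0.04, and Psmb10 had -0.01 ± 0.19 and 0.03. For Psmb10 the KO arrays weighed more, with 0.19 without KO replicate 1 and -0.20 without KO replicate 2. None passed the test (limma adjusted p between 0.908 and 0.997).

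Psmb8 and Psmb9 lie side by side with the peptide transporter genes Tap1 and Tap2 in the mouse reference assembly, in the order Psmb9, Tap1, Psmb8, Tap2, while Psmb10 lies on another chromosome. The promoters of the 3 subunits are shown because the neighbours shared the low value of WT replicate 2 and Psmb10 did not. Each sequence is from RefSeq on GRCm38.p6 and runs 5′ to 3′ on the gene's strand, from 250 bases before the annotated start to 50 after it. Capitals mark matches, on either strand, to 4 motifs: the antioxidant response element core TGANNNNGC, the CCAAT box, the gamma-activated site TTCNNNGAA and the interferon-stimulated response element core, which is GAAA, any 2 bases and GAAA again. No marked matches overlap in these windows. Psmb9 is at chr17:34187281-34187580 on the minus strand, Psmb8 at chr17:34197945-34198244 on the plus strand and Psmb10 at chr8:105938343-105938642 on the minus strand.
Psmb9: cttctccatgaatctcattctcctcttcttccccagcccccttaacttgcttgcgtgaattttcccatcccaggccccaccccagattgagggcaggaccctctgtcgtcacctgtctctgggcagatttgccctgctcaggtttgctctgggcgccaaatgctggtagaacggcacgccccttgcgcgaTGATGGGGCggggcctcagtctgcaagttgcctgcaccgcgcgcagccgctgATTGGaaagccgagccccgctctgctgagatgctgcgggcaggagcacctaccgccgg
Psmb8: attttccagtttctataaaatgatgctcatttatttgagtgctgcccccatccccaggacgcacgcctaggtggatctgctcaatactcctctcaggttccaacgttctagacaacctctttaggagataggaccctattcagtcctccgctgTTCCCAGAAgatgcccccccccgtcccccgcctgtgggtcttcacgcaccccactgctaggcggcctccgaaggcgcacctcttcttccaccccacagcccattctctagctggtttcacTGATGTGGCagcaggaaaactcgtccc
Psmb10: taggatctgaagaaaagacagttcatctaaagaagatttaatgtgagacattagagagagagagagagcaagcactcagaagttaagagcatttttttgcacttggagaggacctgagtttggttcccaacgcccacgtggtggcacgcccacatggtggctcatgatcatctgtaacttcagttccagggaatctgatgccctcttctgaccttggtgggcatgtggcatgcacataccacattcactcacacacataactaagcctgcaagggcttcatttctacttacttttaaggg

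In these windows Psmb8 has 1 gamma-activated site match, 97 bases before the start, and an antioxidant response element core match after the start. Psmb9 has a CCAAT match on the opposite strand and an antioxidant response element core match, and the Psmb10 window has none of the 4. A gamma-activated site match was found in 3 of the 37 members' promoters in the table (8.11%), against 8.30% of 32841 promoters of all genes. The interferon-stimulated response element core was found in 5 of 37 (13.5%), those of Psmb3, Psmd4, Psmd9, Psme1 and Psmg4, against 3.44% of all. These matches describe letters only.

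Each immunoproteasome subunit was also set against the subunit it replaces, as a log2 difference within each array, centred on its mean over the arrays. The mean of the 3 pairs was 0.02 and 0.47 in KO, against 0.32 in WT replicate 1 and -0.81 in WT replicate 2. The KO mean was 0.25 ± 0.31 and the WT mean -0.25 ± 0.80 (SD, n = 2 each), and p was 0.667 by an exact permutation test (two-sided), which cannot go below 0.333 with 2 arrays against 2. The WT pools thus differed from each other by more than the genotypes did. The same held for the pair of Psmb9 and Psmb6, at 0.35 and 0.66 in KO, against 0.87 and -1.88 in WT (exact p = 1.0).

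Genes that work with the immunoproteasome were partly low in the same array. The MHC class I light chain B2m read 1652 and 1618 in KO, against 2031 in WT replicate 1 and 1332 in WT replicate 2, and Tap1 read 124 and 116 in KO, against 155 and 107 in WT on its brighter probe set. A dimmer Tap1 probe set was highest in WT replicate 2, at 49.2. Of 12 measured genes of class I loading and interferon control, 7 were lowest in WT replicate 2 on their brightest probe sets. Of all 8251 genes 2032 were lowest in that array. The dimmer probe sets of Tapbp were not lowest there, whereas that of Jak2 was. In that list 9 genes were higher in KO and 3 were lower, at a median of 0.11 on the log2 scale, and none had an adjusted p under 0.05. The chaperone-like Pdia3, part of the loading complex, read 193 and 163 in KO, against 128 and 115 in WT (0.50 ± 0.20).

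Lymphocytes and macrophages carry immunoproteasome subunits without induction, and lymphocyte markers were low in WT replicate 2 too. Of 10 measured lymphocyte markers 9 were lowest in that array on their brightest probe sets, against 2032 of all 8251 genes. None of the markers was at 0 on any array. Their summed signal was 905 and 1159 in KO, against 1047 in WT replicate 1 and 497 in WT replicate 2. Dimmer probe sets were mixed: that of Ms4a1 was also lowest there, while those of Igha and Cd3d were not. One of Igha was highest there, at 5.57 and 5.06 in KO, against 18.9 and 21.7 in WT. The B-cell gene Cd79a read 169 and 277 in KO, against 190.0 and 62.2 in WT. The summed signal of 9 macrophage and neutrophil markers was 1002 and 1021 in KO, against 1026 and 1027 in WT, without such a difference in the sum. The mean of their log2 deviations was nevertheless lowest in WT replicate 2, at -0.05, with the other arrays between -0.0090 and 0.06. That of the lymphocyte markers was -0.65 there. Of these 9 markers 2 were lowest in WT replicate 2, Fcgr3 and Cd68, and 2 were highest there, Adgre1 and Csf1r. The brighter probe set of Csf1r, which enters the sum, read 265 and 333 in KO, against 329 and 384 in WT. Its second probe set was lowest in WT replicate 2, at 346 and 286 in KO, against 369 and 241 in WT, so the sum depends on this choice. The erythroid genes Hba-a1, a haemoglobin chain, and Alas2, of haem synthesis, were lowest in WT replicate 2 as well, and their summed signal was 8891 and 7832 in KO, against 6791 and 5420 in WT. The part of lymphocyte or blood content in the values of Psmb8 and Psmb9 was not tested.

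**Figure D3:**
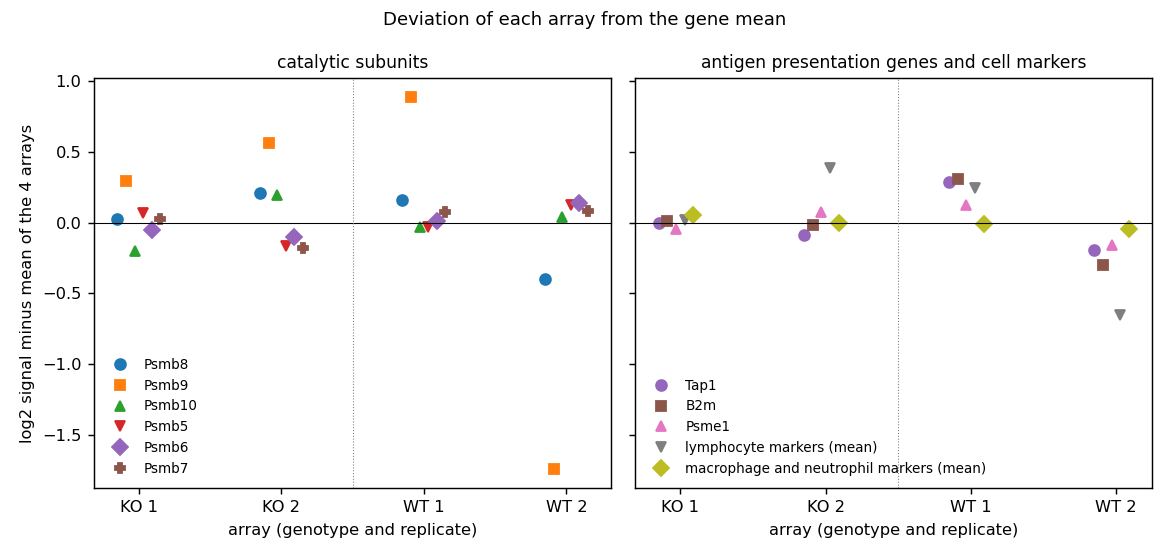
Log2 signal of each array minus the mean of the 4 arrays, for catalytic subunits (left) and for antigen presentation genes and the mean of 2 marker lists (right). Psmb9, Psmb8, B2m, the brighter Tap1 probe set, Psme1 and the lymphocyte markers are lowest in WT 2, whereas Psmb10, Psmb5, Psmb6 and Psmb7 are not. The mean of the macrophage and neutrophil markers is also lowest in WT 2, at -0.05, against -0.65 for the lymphocyte markers.

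The ATPases of the 19S base, which unfold substrates and thread them into the core, did not move as 1 group. Of 6 genes, 4 were lower in KO and 2 were higher (median -0.07). Without Psmc4, the 1 ATPase below the median probe set level, the median was -0.01. Psmc2 read 1478 and 1484 in KO, against 1640 and 1614 in WT (-0.13 ± 0.09). Psmc1 went the other way, with 887 and 767 in KO, against 731 and 758 in WT (0.14 ± 0.12). In both genes the groups did not overlap.

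Psmc5 read 454 and 332 in KO, against 448 and 476 in WT (-0.24 ± 0.17), a difference carried by KO replicate 2 and equal to -0.02 without it. Its other probe set was dim, at 22.6 and 11.2 in KO, against 27.8 and 51.8 in WT (-0.79 ± 0.40). Both probe sets of Psmc5 gave the same direction. The 3 probe sets of Psmc3 gave log2 fold changes of -0.01, 0.04 and 0.12, Psmc6 gave 0.03, and the dim Psmc4 gave -0.18 ± 0.34. For 4 of the 6 ATPases KO replicate 2 was the lowest array, as it was for 2030 of all 8251 genes. Without that array the median of the group was 0.0067.

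The non-ATPase subunits held the member with the smallest p, Psmd8, and genes that differed in each direction. Of 14 genes 8 were lower in KO and 6 were higher (median -0.04), and leaving out KO replicate 1 gave a median of 0.03, KO replicate 2 one of -0.20. Psmd8, a lid subunit (Rpn12), whose yeast counterpart joins last and completes the lid, read 845 and 804 in KO, against 1216 and 1173 in WT. Every KO value was far below every WT value relative to the spread within each genotype. The KO mean was 825 ± 29.0 and the WT mean 1194 ± 30.6 (SD, n = 2 each), a log2 fold change of -0.53 ± 0.10, with a 95% interval from -0.77 to -0.28. With a limma unadjusted p of 0.00176 and an adjusted p of 0.803, it missed the threshold. Leaving out any 1 array gave values between -0.56 and -0.49. With groups that do not overlap, no such fit could turn the sign.

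Psmd6 (Rpn7), another lid subunit, read 1475 and 1411 in KO, against 1679 and 1833 in WT. Its log2 fold change was -0.28 ± 0.10 (limma unadjusted p = 0.0323, adjusted p = 0.846), and between -0.34 and -0.22 without any 1 array. Psmd7 (Rpn8), which holds the deubiquitinase Psmd14 in the lid, read 1993 and 2104 in KO, against 1654 and 1814 in WT. Each KO array lay above each WT array (0.24 ± 0.10, limma unadjusted p = 0.0572, adjusted p = 0.908). The groups of both genes stood apart, in opposite directions within 1 subcomplex.

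The promoter of Psmd8 is shown because this gene had the smallest p of all members. It lies at chr7:29180624-29180923 of GRCm38.p6 on the minus strand, with the same marks as above.
Psmd8: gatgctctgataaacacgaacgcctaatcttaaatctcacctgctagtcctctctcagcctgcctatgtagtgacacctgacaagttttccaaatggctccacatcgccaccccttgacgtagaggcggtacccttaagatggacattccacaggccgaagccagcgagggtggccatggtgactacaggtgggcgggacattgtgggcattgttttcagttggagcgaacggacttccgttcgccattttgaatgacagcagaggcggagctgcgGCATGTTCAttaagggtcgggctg

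The capitals in it are an antioxidant response element core match on the opposite strand, 27 bases after the start, the sequence type bound by Nfe2l1, the transcription factor that raises proteasome genes when the proteasome is impaired. That loose motif was found in 20 of 37 members' promoters (54.1%), against 41.3% of all promoters. The median log2 fold change was -0.05 among members with a match and -0.07 among the 17 without. A CCAAT box was found in 13 of 37 (35.1%), against 37.4% of all, and none of the 4 motifs separated members by direction: in each set more genes were lower than higher.

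The other 5 lid subunits had no unadjusted p under 0.05. Psmd11 (Rpn6), which contacts the core, read 2112 and 2263 in KO, against 1918 and 2145 in WT (0.11 ± 0.11) on its brightest probe set and gave 0.01 ± 0.16 on the next. Another, dim probe set of Psmd11 read 27.8 and 88.3 in KO, against 17.4 and 16.4 in WT (1.08 ± 0.49), with the excess in KO replicate 2 and 0.44 without it. Its identifier carries the suffix r, which Affymetrix gives to probe sets picked under relaxed rules. Psmd14, the deubiquitinase of the lid, gave 0.02 ± 0.13, Psmd12 gave 0.03 ± 0.12, and Psmd3 gave 0.04 ± 0.15. Psmd13 read 358 and 432.9 in KO, against 433.1 and 462 in WT (-0.18 ± 0.14), so its groups did not overlap, by a narrow margin. Of 8 lid genes 3 were lower in KO and 5 were higher. Their median was 0.03 and their mean -0.07, so these differ in sign.

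The means of all 3 base subunits were lower in KO. Psmd4 (Rpn10), a ubiquitin receptor, gave -0.05 ± 0.12, and the scaffold Psmd1 (Rpn2) gave -0.03 ± 0.21. Psmd1 read 862 and 1133 in KO, against 833 and 1227 in WT, so in each genotype replicate 2 was the higher pool. The other scaffold, Psmd2 (Rpn1), was dim, at 14.1 and 16.3 in KO, against 29.2 and 19.4 in WT (-0.38 ± 0.31), and its groups did not overlap. Of the chaperones that build the base, Psmd9 gave -0.24 ± 0.14, Psmd10 (gankyrin) -0.29 ± 0.31 and Psmd5 0.15 ± 0.18.

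**Figure D4:**
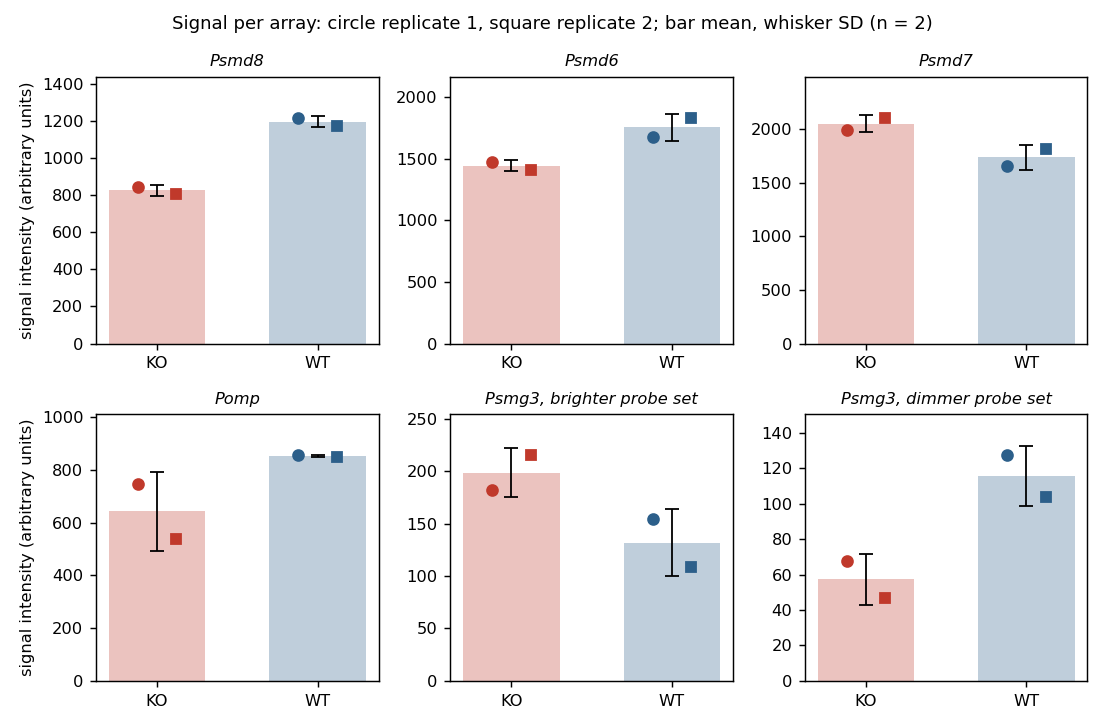
Signal of each array (points), mean (bars) and SD (whiskers, n = 2) in KO and WT for 3 lid subunits, the assembly factor Pomp and both probe sets of Psmg3. Psmd8 reads 845 and 804 in KO against 1216 and 1173 in WT; the Psmg3 probe sets separate the genotypes in opposite directions.

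The activators, which open the core without ATP, showed no separation of the genotypes. Psme1, the alpha subunit of the interferon-inducible activator PA28, read 452 and 494 in KO, against 512 and 419 in WT (0.03 ± 0.14), and was lowest in WT replicate 2. Its second probe set read below 12 on every array, at 2.41 and 2.26 in KO, against 11.2 and 2.76 in WT (-0.33 ± 0.24), with both KO arrays below both WT arrays. Without WT replicate 2 the brighter probe set gave -0.11. Psme3, the nuclear PA28 gamma, read 195 and 219 in KO, against 230 and 218 in WT (-0.11 ± 0.16). Psme4 (PA200) read 1750.3 and 1550.0 in KO, against 1581 and 1784 in WT (-0.03 ± 0.12). On the brightest probe sets the groups of all 3 genes overlapped, and all 3 intervals lay within 1.5-fold. The group's median was -0.03, and -0.11 with the mean of all probe sets of a gene.

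The assembly chaperones of the core had a median absolute log2 fold change of 0.20, against 0.11 for all members and 0.18 for all genes. Their WT pools differed by a median of 0.31, and Psmg3 cannot be given a direction. Of 4 genes 2 were lower in KO and 2 were higher, and the median log2 fold change was 0.08 on the brightest probe sets and -0.10 with the mean of all probe sets of a gene. Its brighter probe set, also with the suffix r, read 182 and 215 in KO, against 154 and 109 in WT (0.56 ± 0.23, limma unadjusted p = 0.0498, adjusted p = 0.908). Its dimmer probe set read 67.5 and 46.9 in KO, against 127 and 104 in WT (-0.87 ± 0.30, limma unadjusted p = 0.027, adjusted p = 0.846). Each separated the genotypes, and they did so in opposite directions. The partner of Psmg3, Psmg4, read 196 and 199 in KO, against 157 and 181 in WT (0.21 ± 0.18). Psmg2 read 215 and 174 in KO, against 222 and 220.4 in WT (-0.18 ± 0.18), and its partner Psmg1 gave -0.05 ± 0.23. In Psmg4 and Psmg2 the groups did not overlap either.

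Where a gene had more than 1 probe set, the sign of its fold change often depended on the choice. This was so for 6 of 8 such genes, Psmb1, Psmb4, Psmb5, Psmc3, Psme1 and Psmg3, and not for Psmc5 and Psmd11. The symbols matched by name but set apart gave -0.07 ± 0.44 for the dim Psmc3ip and -0.22 ± 0.19 for Psme3ip1, with overlapping groups.

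Genes of the pathway outside the naming pattern were read in the same way. Of 10 listed proteasome parts and helpers 7 were measured, and in KO 2 of these were lower and 5 were higher (median 0.03 on the log2 scale), and none had an adjusted p under 0.05. Pomp, which matures the core and leaves it as its first substrate, read 747 and 537 in KO, against 855 and 850 in WT (-0.42 ± 0.17, limma unadjusted p = 0.0446, adjusted p = 0.902), with the lowest value in KO replicate 2 and a log2 fold change of -0.19 without it. Sem1, the smallest lid subunit, read 1199 and 1128 in KO, against 1279 and 1217 in WT (-0.10 ± 0.10), on an r probe set. Both lay lower in both KO arrays. The deubiquitinase Usp14 gave 0.01 ± 0.19, Uchl5 gave 0.19 ± 0.27 and the proteasome scaffold Ecpas gave 0.15 ± 0.10.

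Of 13 shuttle and unfoldase genes 7 were measured, and in KO 5 were lower and 2 were higher (median -0.05). Vcp, the unfoldase that extracts ubiquitinated proteins, gave -0.05 ± 0.09 on its brightest probe set and between -0.63 and 1.30 on 3 dim ones, and the autophagy receptor Nbr1 gave -0.27 ± 0.13, with 0.62 ± 0.32 on a dim one. Of 7 measured transcription factors 4 were lower in KO and 3 were higher (median -0.01). Nfe2l1 read 1683 and 2199 in KO, against 1888 and 2219 in WT (-0.09 ± 0.16), and the groups overlapped. Nfyb, a subunit of the factor that binds CCAAT boxes, read 171 and 173 in KO, against 236 and 247 in WT (-0.46 ± 0.16, limma unadjusted p = 0.028, adjusted p = 0.846). Its partners differed: Nfya gave 0.52 ± 0.28 and Nfyc -0.01 ± 0.13.

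Of 11 listed ubiquitin ligases of muscle 4 were measured, 1 lower and 3 higher, with log2 fold changes between -0.05 for Mdm2 and 0.12 for Traf6 on their brightest probe sets. Traf6 had 2 other probe sets, at -1.03 and 0.95. None of the 4 listed ubiquitin genes had a single-symbol probe set here. No gene of these lists had an adjusted p under 0.05.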

How the data were processed

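The authors deposited linear signal intensities without a stated unit, 1 for every probe set on an array, made from biotin-labelled total RNA per the labels' protocols, with the summary algorithm, background correction and scaling not given in the sources used here. As deposited, the intensities had a common scale: a mean that left out 2% of rows at either end was 200.0 on each array (199.95 to 199.952). Array medians lay between 67.6 and 71.2, and the precision is limited by the number of arrays. Of 12488 rows, 66 Affymetrix controls were left out. A pseudocount of 14, which is 20% of the median, was added before taking log2, and this understates the fold changes of dim probe sets. KO and WT were compared with limma 3.58.1 in R 4.3.3 (lmFit, eBayes with an intensity trend), two-sided, with Benjamini-Hochberg adjustment over all 12422 probe sets at 0.05. Errors of fold changes are standard errors of that fit. The fit's fold changes and calls were tested only on simulated data with changes far larger than those of the members. Calls at the size of the members' fold changes were not tested. Summaries used Python 3.11.15 and scipy 1.17.1.

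Symbols came from the platform annotation, updated through gene identifiers to GRCm38.p6. A gene was read on its probe set with the highest mean. Per-array values were given for the 3 genes of each role group with the smallest p, genes with an absolute log2 fold change of at least 0.5 on any probe set, the catalytic and activator subunits, and genes whose probe sets differ in sign with 1 past 0.3; others were summarised or chosen after their values were seen. The members, roles and lists were chosen with earlier results of these data known, so lists got no test of their own. The split of non-ATPase subunits into lid, base and chaperones, and the motifs, were set after the values were seen. The replicate numbers did not pair the samples.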

Additional observations from a re-analysis of the deposited data

How the results depend on the processing

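No probe set passed the adjusted test with a pseudocount of 3.5 or 56, only probe sets above the median level, median centring, quantile normalization, no intensity trend, the replicate number as a block, or any 1 array left out. No paired design follows from the labels: deviations of WT replicate 1 and KO replicate 1 correlated at 0.0034 across probe sets, and the fit with the replicate block gave 0 calls and 740 probe sets at an unadjusted p under 0.05, against 674 without it. At that limit, the filter on level left 350 of fewer probe sets tested, and the count of members was 2 without the trend.

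Leaving out 1 array moved the median of all members to between -0.059 and -0.028, of alpha subunits to between -0.098 and -0.025, of constitutive beta subunits to between -0.157 and -0.030, of ATPases to between -0.094 and 0.0067, of non-ATPase subunits to between -0.202 and 0.026, of activators to between -0.112 and -0.032, of assembly chaperones to between 0.06 and 0.15 and of immunoproteasome subunits to between -0.04 and 0.51. It gave between 21 and 22 members lower and 9 and 12 higher without overlap, since 1 array then stands for a genotype. All genes then gave between 33.8% and 35.4% lower and between 31.2% and 35.8% higher. Named probe sets turned sign only there: Psmb10 ranged from -0.20 to 0.19, Psmb8 from -0.044 to 0.51, Psmb9 from -0.46 to 2.17, Psme1 from -0.11 to 0.17, Psme4 from -0.11 to 0.059, Psmb5 from -0.21 to 0.021 and the dimmest Psmb4 probe set from -0.024 to 1.12. With the mean of all probe sets of a gene, the activator median was -0.11 and the assembly chaperone median -0.10. Counting in Psmc3ip and Psme3ip1, an alternative chosen after seeing the data, gave 31 lower genes and a median of -0.05. Leaving out arrays for Pomp, Nfyb, Pdia3 and Foxo3 was also chosen after seeing the data. It could turn no sign there, since the groups of these genes did not overlap. The causes were not tested.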

Other observations

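Psmb10 lies next to Ctrl, a chymotrypsin gene of pancreatic acinar cells, in the mouse reference assembly. Ctrl read 574 and 472 in KO, against 297 and 309 in WT, while Psmb10 read 205 and 273 in KO, against 232 and 244 in WT.

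The stress-responsive transcription factor Foxo3, listed here among regulators of proteasome genes, read 247 and 249 in KO, against 180.3 and 196.1 in WT (log2 fold change 0.38 ± 0.16, limma adjusted p = 0.908).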
